A study of Mus musculus with 10 samples.

Results

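Rag1, Rag2 and Dntt, the lymphocyte genes of V(D)J recombination, were described in mediastinal lymphomas of the T cell lineage from 10 mice with the NPM-ALK transgene, a fusion kinase of anaplastic large cell lymphoma. They were taken by symbol from the probe sets that carry a single gene symbol. Each of the 3 genes had 1 such probe set, and all 3 lay above the filter on dim probe sets that 12670 genes passed, of 19937 genes with a probe set. RNA of 1 lymphoma per mouse was measured on 1 array. The WASP-/- group held 5 NPM-ALK mice that lacked WASP, the actin regulator encoded by Was. The WT group held 5 NPM-ALK mice with intact WASP, so the transgene was common to both groups. All mice were on a C57BL/6 background, lymphomas arose at 4 to 5 months of age, and the design text speaks of WASP-deficient mice of both sexes without giving the sex of a single animal. The promoter that drives the transgene is not given in the sources used here, and no non-malignant thymus was analysed here.

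Rag1 and Rag2 encode the subunits of the recombinase that cuts DNA beside the V, D and J segments of antigen receptor genes. RAG1 holds the catalytic site and RAG2 is its obligate cofactor. Dntt encodes terminal deoxynucleotidyl transferase, which adds bases without a template at the joins before the breaks are sealed by non-homologous end joining. In the thymus these genes are active while the T cell receptor beta and alpha genes are rearranged, and they are shut off when a thymocyte matures. Rag1 and Rag2 are neighbours that are transcribed towards each other.

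The promoters are shown because Rag1 and Dntt varied together among the 7 lymphomas of low Cd2 and Rag2, the neighbour of Rag1, had a much larger spread. The sequences are those of RefSeq (GRCm38.p6), from 250 bases before to 50 bases after the annotated start, at chr2:101649483-101649782 on the minus strand for Rag1, chr2:101624462-101624761 on the plus strand for Rag2 and chr19:41029025-41029324 on the plus strand for Dntt, and all 3 genes were matched by symbol. Capitals mark any match, on either strand, to 6 short motifs. These were the E-box (CANNTG), the RUNX core (TGTGGT), the inverted or direct NF-Y core (CCAAT), the Ikaros core (TGGGAA), the TATA motif with letters TATAAA and the GATA-factor core with letters AGATAA.
Rag1: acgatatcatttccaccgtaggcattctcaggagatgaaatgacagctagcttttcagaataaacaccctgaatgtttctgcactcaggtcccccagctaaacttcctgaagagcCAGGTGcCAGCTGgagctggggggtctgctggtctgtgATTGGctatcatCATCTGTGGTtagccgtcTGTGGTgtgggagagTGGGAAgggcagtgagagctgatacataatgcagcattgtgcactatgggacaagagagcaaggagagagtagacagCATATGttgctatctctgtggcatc
Rag2: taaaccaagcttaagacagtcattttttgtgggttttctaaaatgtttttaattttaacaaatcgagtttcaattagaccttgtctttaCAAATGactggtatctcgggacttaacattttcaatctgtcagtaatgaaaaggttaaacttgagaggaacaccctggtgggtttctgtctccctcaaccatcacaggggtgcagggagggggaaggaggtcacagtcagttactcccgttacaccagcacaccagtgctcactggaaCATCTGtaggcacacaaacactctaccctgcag
Dntt: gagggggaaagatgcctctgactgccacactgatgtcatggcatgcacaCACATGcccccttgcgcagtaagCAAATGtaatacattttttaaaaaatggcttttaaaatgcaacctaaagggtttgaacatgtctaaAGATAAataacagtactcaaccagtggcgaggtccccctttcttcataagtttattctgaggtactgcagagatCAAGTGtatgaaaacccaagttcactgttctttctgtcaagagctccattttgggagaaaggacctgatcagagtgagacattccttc
The Rag1 window held 4 E-boxes, 2 RUNX cores, 1 NF-Y core on the opposite strand and 1 Ikaros core, and the E-box at -85 overlapped the RUNX core at -81. The Rag2 window held 2 E-boxes and the Dntt window 3 E-boxes and 1 GATA-factor core. Of 32851 promoter windows of the same length, 72.3% held an E-box, 16.8% a RUNX core, 37.4% an NF-Y core, 25.6% an Ikaros core, 13.6% a TATA motif and 11.2% a GATA-factor core. The 3 windows shared no motif of this search other than the E-box. These matches are letters in a window and no binding was measured.

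Array medians of the linear intensity ran from 116.7 to 122.7, and precision is limited by having 5 arrays per genotype. Was, the targeted gene, was at 7.92 to 8.20 on the WASP-/- arrays and at 9.11 to 9.34 on the WT arrays, so it matched the label on 10 of 10 arrays. Of 13 T cell identity genes 11 were measured and all 11 had a mean above the filter. Cd3e lay between 12.06 and 12.59 and Thy1 between 11.86 and 12.31 on all 10 arrays, while Cd5 (6.57 to 7.38) and Cd6 (6.62 to 7.75) were dim. Cd3d was at 6.47 on WASP-/- array 1 and, under the filter's level of 6.35, at 5.26 and 5.60 on WT arrays 4 and 5, against 8.96 to 10.08 on the other 7 arrays. Levels of Cd2, an adhesion receptor of T cells, split the arrays across genotypes: it was at 11.52 on WASP-/- array 1, 11.18 on WT array 4 and 11.30 on WT array 5, called Cd2-high here (log2 of 9 or more), and at 6.10 to 6.90 on the 7 Cd2-low arrays. These sets come from a measured level and are not groups of the study, so they are compared below without a test. WT arrays 1 and 2 were the most alike of all pairs, with an SD of 0.18 of their log2 difference over genes, against 0.24 to 0.76 for the other pairs. The labels call the replicates biological, and whether these 2 arrays come from separate tumours was not tested, so results that move when they are averaged into 1 sample are given that way too. All levels below are log2 intensities of a gene's own probe set, and no level is set against that of another gene.

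Rag1 was expressed in every lymphoma. It was at 11.59, 12.13, 11.54, 11.12 and 11.23 on WASP-/- arrays 1 to 5, and at 11.86, 11.82, 11.87, 11.47 and 11.50 on WT arrays 1 to 5. WASP-/- array 2 was the highest and WASP-/- arrays 4 and 5 the lowest, and the WT values lay inside the range of the WASP-/- values. Over all 10 lymphomas the highest level was 2.01 times the lowest. In bulk samples, fewer cells that express a gene and less of its RNA per cell cannot be told apart.

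Dntt was likewise expressed in every lymphoma. It was at 11.97, 11.91, 11.67, 11.17 and 11.28 on WASP-/- arrays 1 to 5, and at 11.73, 11.72, 12.02, 12.18 and 12.23 on WT arrays 1 to 5. The lowest values were again those of WASP-/- arrays 4 and 5, the highest were those of WT arrays 4 and 5, and the groups overlapped. The highest level was 2.08 times the lowest.

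Rag2 differed far more between lymphomas. It was at 7.68, 9.94, 8.56, 7.12 and 7.37 on WASP-/- arrays 1 to 5, and at 9.36, 9.20, 7.44, 5.51 and 6.34 on WT arrays 1 to 5. WASP-/- array 2 and WT arrays 1 and 2 were high, WT arrays 4 and 5 were low, and each genotype held both high and low lymphomas. On the linear scale the intensity ran from 45.7 on WT array 4 to 980.1 on WASP-/- array 2, a ratio of 21.4. The values of WT arrays 4 and 5 lay under 6.35, the mean below which a probe set was left out of the tests, so how far Rag2 was expressed above background there cannot be read from them.

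**Figure D1:**
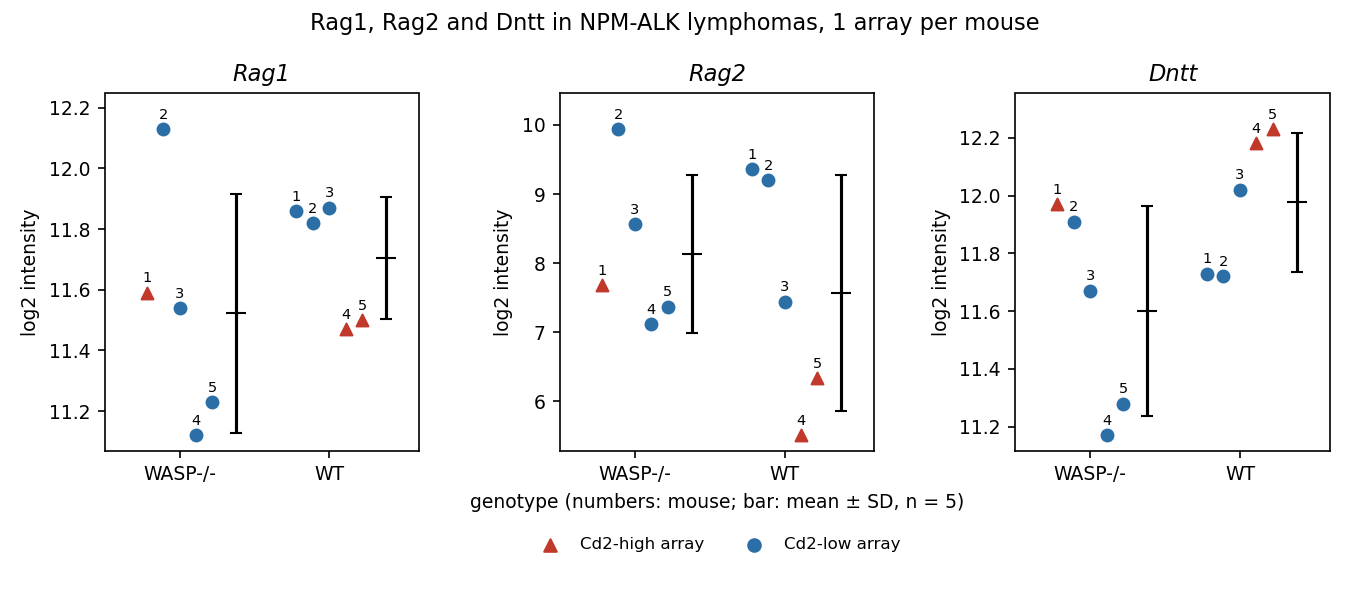
Log2 intensity of Rag1, Rag2 and Dntt (vertical axes, each with its own scale) on the 5 WASP-/- and 5 WT arrays, numbered by mouse, with mean and SD as bars. Triangles are the 3 Cd2-high and circles the 7 Cd2-low arrays. Rag2 spans 5.51 to 9.94 within overlapping genotypes, while Rag1 spans 11.12 to 12.13 and Dntt 11.17 to 12.23.

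Set against the spread of all genes, Rag2 stood near the top. Its SD over the 10 arrays was 1.40, which 107 of 12670 genes (0.845%) reached or passed, against a median SD of 0.20. The SD was 0.31 for Rag1 and 0.35 for Dntt, above 73.9% and 79.1% of all genes. Rag1 and Dntt thus varied somewhat more than the typical gene, and Rag2 lay among the most variable 1% of genes. These SDs are a description and were not adjusted for the level of a gene.

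**Figure D2:**
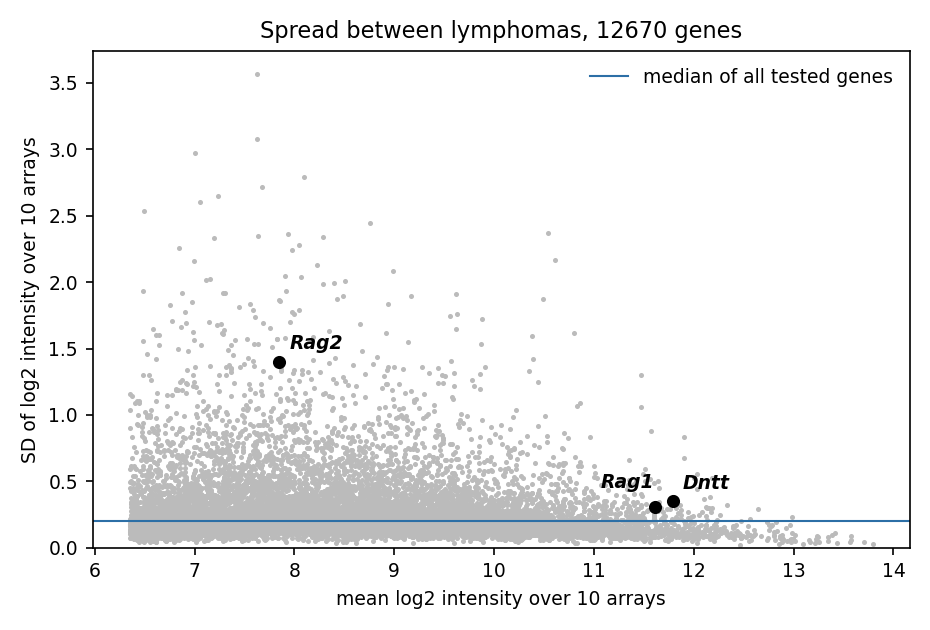
SD against mean of log2 intensity over the 10 arrays for 12670 genes (grey), with the 3 recombination genes in black and the median SD of 0.20 as a line. Rag2 lies at an SD of 1.40, Rag1 at 0.31 and Dntt at 0.35.

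No recombination gene passed the test of genotype. Across all genes 1 of 12670 passed (0.00789%, limma adjusted p under 0.05), which was Was, and 2.89% had an unadjusted p under 0.05. Rag1 averaged 11.52 ± 0.39 in WASP-/- lymphomas and 11.70 ± 0.20 in WT lymphomas (SD, n = 5 each). WASP-/- minus WT came to -0.18 on the log2 scale (SE 0.18, 95% interval -0.59 to 0.23, limma adjusted p = 0.999, exact two-sided permutation p = 0.413). That interval runs from 0.666 to 1.17 times the WT level. The value rested on single lymphomas, at -0.33 without WASP-/- array 2 (unadjusted p = 0.0408, limma adjusted p = 0.999) and -0.11 and -0.08 without WASP-/- arrays 5 and 4 (limma adjusted p = 1.0 for each).

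Dntt averaged 11.60 ± 0.36 in WASP-/- lymphomas and 11.98 ± 0.24 in WT lymphomas (SD, n = 5 each). WASP-/- minus WT came to -0.37 on the log2 scale (SE 0.18, 95% interval -0.77 to 0.03, limma adjusted p = 0.999, unadjusted p = 0.0637, exact two-sided permutation p = 0.0873). Of the recombinase genes and Dntt it had the smallest unadjusted p. Leaving out 1 array gave -0.47 (without WASP-/- array 1) to -0.27 (without WASP-/- array 4), and weighting arrays by their quality gave -0.17 (limma adjusted p of 0.659 to 1.0 in these settings). The unadjusted limma p was 0.0266 and 0.0383 without WASP-/- arrays 1 and 2, and 0.0494 and 0.0462 without WT arrays 1 and 2. It was above 0.05 without any other array. With WT arrays 1 and 2 averaged the difference was -0.44 (limma unadjusted p = 0.0477, adjusted p = 0.966).

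Rag2 averaged 8.13 ± 1.15 in WASP-/- lymphomas and 7.57 ± 1.70 in WT lymphomas (SD, n = 5 each). WASP-/- minus WT came to 0.56 on the log2 scale (SE 0.81, 95% interval -1.24 to 2.36, limma adjusted p = 0.999, exact two-sided permutation p = 0.548). The interval covers 0.423 to 5.15 times the WT level, which leaves the effect of WASP loss on Rag2 poorly bounded with 5 lymphomas per genotype. The difference was 0.99 with WT arrays 1 and 2 averaged. The sign turned within the 7 Cd2-low arrays, where the difference was -0.42 (SE 0.71, limma adjusted p = 0.999), a comparison that leaves out WT arrays 4 and 5, the lowest of all for Rag2. A gap between genotypes with no overlap was seen for 0 of the 3 genes and for 0.568% of all genes.

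Sex-linked RNA moved with genotype. Xist, the RNA that silences an X chromosome in female cells, was at 4.50 to 5.58 on the WASP-/- arrays, against 11.52 to 11.90 on WT arrays 1, 2, 4 and 5 and 4.40 on WT array 3. Kdm5d, a Y-linked gene, was at 8.20 to 9.19 on the WASP-/- arrays and 8.68 on WT array 3, against 4.61 to 5.51 on the other 4 WT arrays. WT array 3 was thus the only WT array at the Xist level of the WASP-/- arrays, so sex and genotype can hardly be told apart here. With the Xist level as a covariate the log2 differences were -0.34 for Rag1, 0.63 for Rag2 and -0.41 for Dntt, and none passed (limma adjusted p = 1.0). These differences rest largely on WT array 3 and cannot separate sex from genotype.

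**Figure D3:**
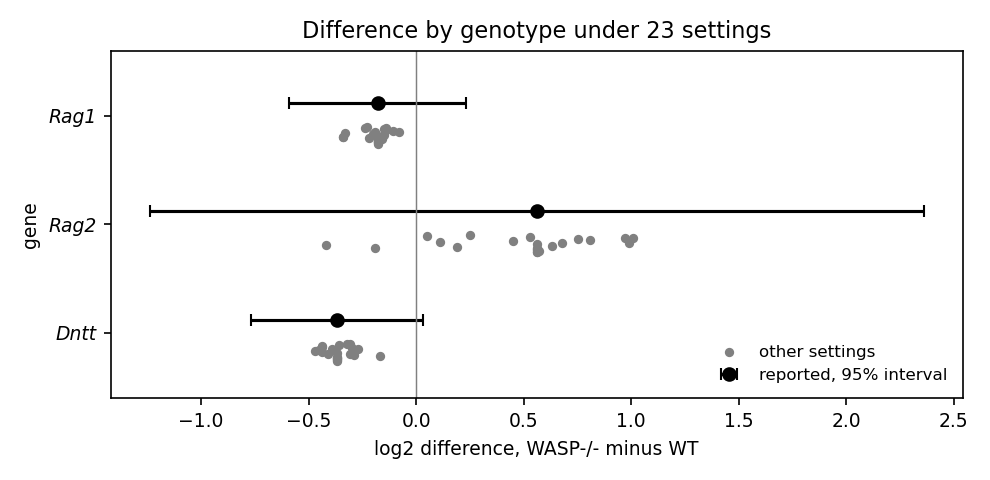
Log2 difference (WASP-/- minus WT, horizontal axis) of the 3 genes as reported, with 95% intervals (black), and under 22 other settings (grey). All 3 intervals include 0, and the Rag2 differences run from -0.42 to 1.01.

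Between Cd2-high and Cd2-low arrays Rag2 had the lower mean on Cd2-high arrays and Dntt the higher, while the Rag1 means were close. Rag2 was at 7.68, 5.51 and 6.34 on the Cd2-high arrays (WASP-/- 1, WT 4 and WT 5), against 7.12 to 9.94 with a median of 8.56 on the 7 Cd2-low arrays. The difference of means was -1.92, or 0.265 times the Cd2-low level. The sets overlapped through WASP-/- array 1, which lay above 3 Cd2-low arrays, and the difference was -2.50 without it.

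Dntt was at 11.97, 12.18 and 12.23 on the Cd2-high arrays, against 11.17 to 12.02 with a median of 11.72 on the Cd2-low arrays, a difference of means of 0.48. It overlapped through WT array 3 at 12.02. Rag1 was at 11.59, 11.47 and 11.50 on the Cd2-high arrays, inside the Cd2-low range of 11.12 to 12.13 with a median of 11.82, and the means differed by -0.13. Thus 0 of the 3 genes separated the sets, while 30.5% of all genes did so, 14.4% higher and 16.1% lower on the Cd2-high arrays, and 7.43% had means at least 2-fold apart, as Rag2 did. The median difference over all genes was -0.016.

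Within the 7 Cd2-low arrays Dntt followed Rag1. Pearson's r between them was 0.93 (exact permutation p = 0.00516, adjusted p = 0.0155 over 3 pairs, n = 7) and Spearman's rho 0.96 (exact permutation p = 0.00278, adjusted p = 0.00833). Without WASP-/- arrays 4 and 5, the farthest from the median of Dntt, r was 0.62 over 5 arrays, so the relation rests largely on these 2 lymphomas in which both genes were lowest. For Rag2 and Rag1 r was 0.79 (exact permutation p = 0.0474, adjusted p = 0.0711) and rho 0.79 (exact permutation p = 0.048, adjusted p = 0.072), which did not pass after adjustment, and r was 0.52 without WASP-/- arrays 2 and 4. For Dntt and Rag2 r was 0.56 (exact permutation p = 0.205, adjusted p = 0.205) and rho 0.64 (exact permutation p = 0.139, adjusted p = 0.139), and r was -0.39 without WASP-/- arrays 4 and 5. With WT arrays 1 and 2 averaged, r was 0.93 for Dntt and Rag1 (exact permutation p = 0.00972, adjusted p = 0.0292, n = 6), 0.77 for Rag2 and Rag1 (exact permutation p = 0.0903) and 0.56 for Dntt and Rag2 (exact permutation p = 0.253). These pairs were tested within the Cd2-low arrays because the Cd2-high arrays form a cluster of their own. The relation of Dntt and Rag1 did not extend to that cluster. On WASP-/- array 1 and WT arrays 4 and 5, Dntt was at 11.97, 12.18 and 12.23, while Rag1 was at 11.59, 11.47 and 11.50. The r of 0.93 therefore holds for the Cd2-low arrays only and not for the series. Other genes came as close on these 7 arrays, such as Tvp23a to Rag1 (r = 0.96) and Elmo1 to Dntt (r = 0.96). The share of all genes with such an r was not counted, so the relation cannot be called particular to this pair.

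Neighbouring genes were set beside the Rag locus. Iftap, which encodes a protein linked to intraflagellar transport, overlaps Rag2 on the opposite strand in the RefSeq annotation. It was at 6.93, 8.40, 6.67, 6.54 and 6.30 on WASP-/- arrays 1 to 5, and at 7.76, 7.69, 6.78, 6.30 and 6.58 on WT arrays 1 to 5. Its 3 highest arrays, WASP-/- 2, WT 1 and WT 2, were also the 3 highest of Rag2, and on the other 7 it lay between 6.30 and 6.93. Whether signal of one gene reached the probe set of the other was not tested. Traf6, a signalling ubiquitin ligase on the far side of Rag1, ranged only from 10.20 to 10.99, with its highest value on WASP-/- array 4, the Cd2-low array of lowest Rag2.

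**Figure D4:**
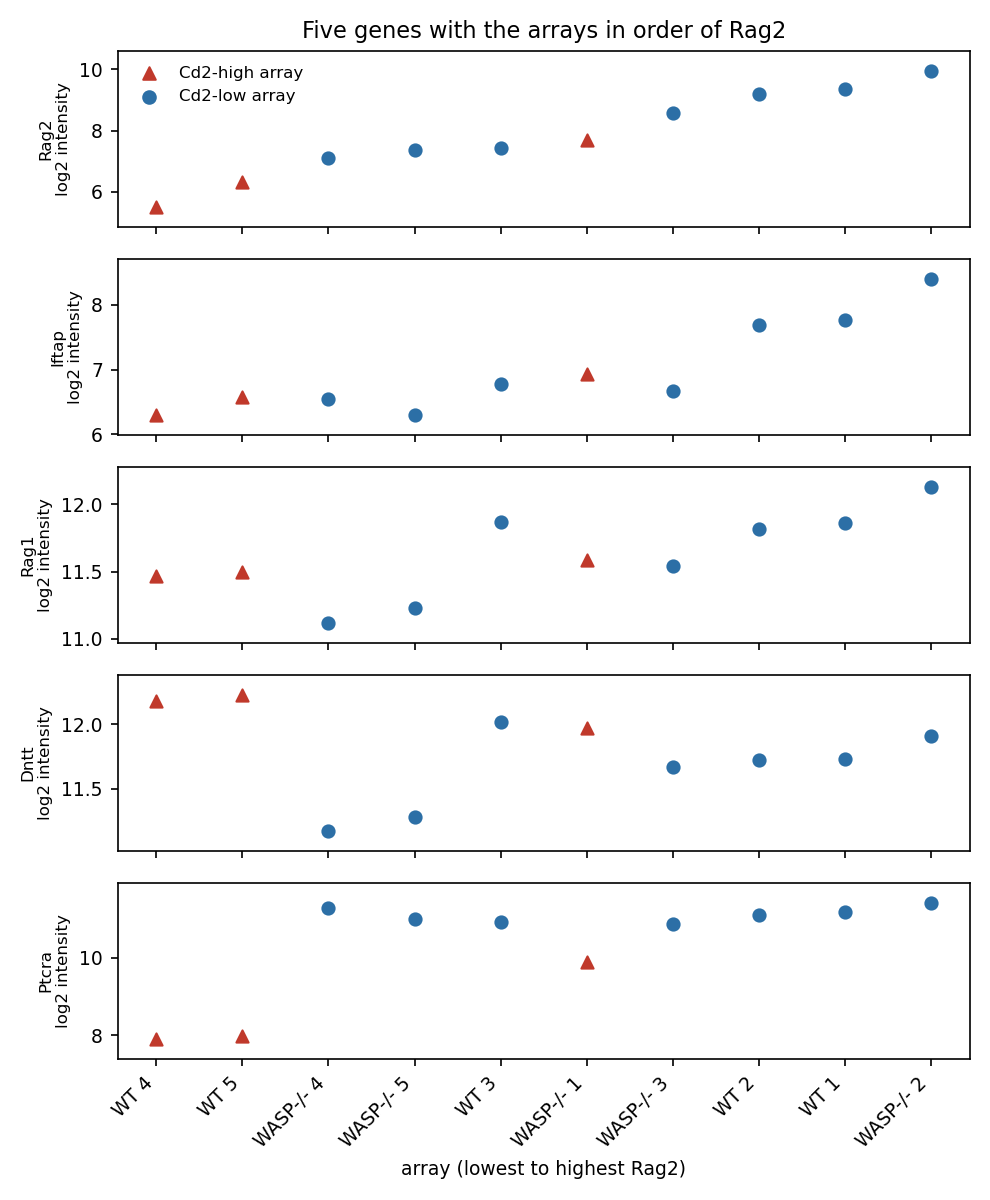
Log2 intensity (vertical axes, own scale per gene) of Rag2, Iftap, Rag1, Dntt and Ptcra on the 10 arrays in order of Rag2. Iftap is high on the 3 arrays of highest Rag2, Rag1 and Dntt are lowest on WASP-/- arrays 4 and 5, and Ptcra is lowest on the 3 Cd2-high arrays.

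The other parts of the recombination machinery were taken from a list of 17 genes with the 3 above, of which 16 were measured and tested. Dclre1c was not analysed here. By genotype 0 of the other 13 genes passed in either direction and 0 had an unadjusted p under 0.05 (limma), with a median log2 difference of -0.09 and a range of -0.32 to 0.15, against a median of -0.004 over all genes. Values of 11 were lower and of 2 higher in WASP-/- lymphomas. This split was not tested, and the Cd2 sets are uneven by genotype, as WT arrays 4 and 5 but only WASP-/- array 1 were Cd2-high. The smallest p values among them were those of Polm, a polymerase of end joining related to Dntt, at -0.32 (SE 0.17), and of Prkdc, the DNA-dependent protein kinase, at -0.18 (SE 0.11).

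By Cd2 set, 6 of the 13 did not overlap, 4 higher and 2 lower on Cd2-high arrays, against 30.5% of all genes. Poll, another polymerase of end joining, was at 6.72 to 7.20 on Cd2-high arrays and 5.97 to 6.31 on Cd2-low arrays. Xrcc4, the partner of DNA ligase IV, was at 9.38 to 9.46 on Cd2-high arrays and 8.30 to 8.92 on Cd2-low arrays. Polm was at 8.06 to 8.23 on Cd2-high arrays and 7.18 to 7.90 on Cd2-low arrays. All 3 are factors that process or seal the broken ends. Nhej1, which encodes the XRCC4-like factor, was also higher on Cd2-high arrays, at 7.92 to 7.93 against 7.52 to 7.82.

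The 2 genes that were lower without overlap were Paxx, an end joining factor that binds Ku, at 9.38 to 9.47 on Cd2-high arrays and 9.51 to 10.21 on Cd2-low arrays, and Hmgb1, a DNA-bending cofactor of the RAG recombinase, at 10.09 to 10.17 on Cd2-high arrays and 10.22 to 10.56 on Cd2-low arrays. Xrcc6, which encodes Ku70, differed by -0.59 with overlap, and Xrcc5, which encodes Ku80, by 0.04. Lig4, DNA ligase IV, differed by 0.30 and ranged from 9.55 to 10.59 over all arrays. Hmgb2, the relative of Hmgb1, differed by 0.29, Atm, the kinase of the break response, by 0.28, Prkdc by 0.21 and Trp53bp1 by 0.12, all with overlap. None of the 13 had means 2-fold apart, unlike Rag2.

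**Figure D5:**
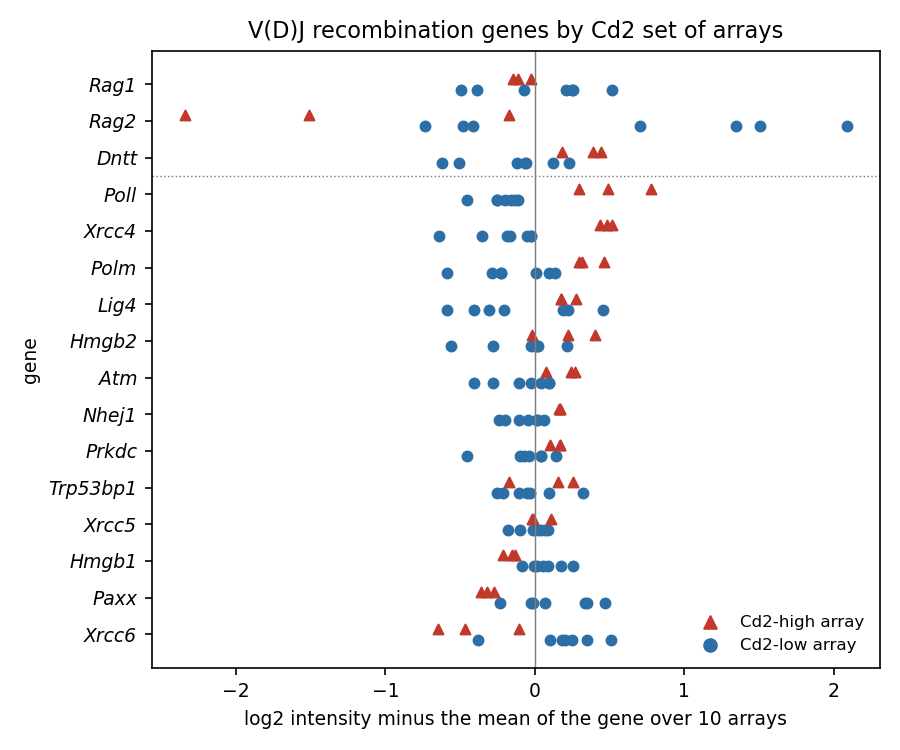
Log2 intensity of 16 recombination genes, centred on each gene's mean over 10 arrays (horizontal axis), for the 3 Cd2-high (triangles) and 7 Cd2-low arrays (circles). Rag2 has the widest spread, Poll, Xrcc4, Polm and Nhej1 lie higher on all Cd2-high arrays, and Paxx and Hmgb1 lower.

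Of 23 tested regulators of these genes in lymphocytes, 0 passed by genotype in either direction (limma, median -0.01, 0 with an unadjusted p under 0.05). By Cd2 set 4 were higher and 7 lower without overlap, against 14.4% and 16.1% of all genes, with a median of 0.14. Id3, an inhibitor of E proteins, was at 8.62, 9.60 and 9.32 on the Cd2-high arrays, against a median of 7.14 and a highest value of 8.75 on the Cd2-low arrays, and the sets overlapped through WASP-/- array 5. Runx3, a runt-domain transcription factor, was at 7.60, 6.93 and 6.84 on the Cd2-high arrays, against 8.02 to 10.08 on the Cd2-low arrays. Spib, an ETS-family factor, differed by -1.23, Gfi1, a repressor, by -0.68 and Foxp1 by 0.65, each without overlap. Of the E protein genes, whose products bind E-boxes, Tcf3 differed by 0.01 and Tcf4 by 0.26 with overlap, and Tcf12 by -0.15 without overlap.

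Thymocyte stage genes separated the Cd2 sets without overlap about as often as all genes did, but larger differences of means were more frequent among them. Of 18 immature thymocyte genes 0 passed by genotype (limma, median -0.20), and by Cd2 set 4 were higher and 2 lower without overlap (median 0.35), against 30.5% of all genes in either direction. Means at least 2-fold apart were seen for 8 of the 18, against 7.43% of all genes. The list was chosen with earlier results of these data known, so its higher share is a description and not a test. Ptcra, the alpha chain of the pre-T cell receptor, was at 9.88, 7.91 and 7.99 on the Cd2-high arrays, against 10.87 to 11.41 on the Cd2-low arrays. Il7r, the interleukin-7 receptor of early thymocytes and mature T cells, was at 10.98, 10.05 and 10.41 on the Cd2-high arrays, against 6.27 to 7.39 on the Cd2-low arrays. Kit, a receptor of early progenitors, differed by 1.28 without overlap, Cd8a by 1.63 and Dtx1, a Notch target, by -1.36, both with overlap. Of 6 tested genes of mature thymocytes, 0 passed by genotype and 2 were higher by Cd2 set without overlap, against 14.4% of all genes. These were Il7r, already counted among the immature thymocyte genes, and Ccr7, a homing receptor, which differed by 1.63 by Cd2 set. The CD3 chain genes Cd3d and Cd3g, which join the receptor that recombination builds, differed by -3.78 and -3.96 without overlap. Cd3e and Cd247, which encode other chains of that complex, differed by 0.17 and 0.03 with overlap. Of 11 tested T cell identity genes, 3 were higher, Cd2 itself among them, and 2 lower without overlap, against 30.5% of all genes in either direction.

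B cell progenitors also express Rag1, Rag2 and Dntt, so their markers were measured beside them. Of 12 B lineage markers 11 were measured and 4 lay above the filter. The brightest was Blnk, an adaptor of the B cell receptor, at 7.60 to 9.06 with the highest value on WASP-/- array 4, followed by Cd79b, a chain of that receptor, at 6.84 to 8.24. Their summed linear intensity was 887 to 1396 on WASP-/- arrays and 922 to 1118 on WT arrays, and it was 1019 to 1237 on Cd2-high arrays and 887 to 1396 on Cd2-low arrays. The B cell factor Pax5 and the surrogate light chain genes Vpreb1, Vpreb3 and Igll1 were below the filter. Summed intensity of 10 macrophage markers was 6309 to 11126 on WASP-/- arrays and 6930 to 9674 on WT arrays. Of 9 tested macrophage markers 0 passed by genotype, 2 had an unadjusted p under 0.05 (limma) and values of 8 were higher in WASP-/- lymphomas. That of 10 thymic epithelial markers was 1651 to 2636 on WASP-/- arrays and 1197 to 1697 on WT arrays. Of 8 tested epithelial markers 0 passed by genotype (limma adjusted p = 0.999 for each), while 4 had an unadjusted p under 0.05, against 2.89% of all genes, and values of 7 were higher in WASP-/- lymphomas. These 4 were the keratin genes Krt5, Krt8 and Krt14 and the claudin gene Cldn4, with log2 differences of 1.31, 1.06, 0.70 and 0.52. Such keratins are not particular to the thymus. Of the rest of the list, Epcam differed by 0.69, Prss16 by 0.46, Aire by 0.41 and Ccl25 by -0.03. Psmb11 (0.02) and Foxn1 (0.15) lay under the filter. The part of B lineage cells, macrophages and epithelium in the levels of Rag1, Rag2 and Dntt was not tested.

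The genes most like each member were found by Pearson's r over the 10 arrays among all tested genes, as a description in which the Cd2 sets and shared normalization enter. For Dntt they were Elmo1 (r = 0.98), which activates Rac together with DOCK proteins, Dpysl2 (0.97), Riox2 (0.96), Vav1 (0.96), an exchange factor of T cell receptor signalling, and Dock11 (0.95), an exchange factor of Cdc42. Within the 7 Cd2-low arrays r for these 5 lay between 0.94 and 0.98, but these arrays are among the 10 on which the genes were picked. The most opposite were Tox2 (-0.98), H1f2 (-0.98), a linker histone, and Slc39a13 (-0.97), a zinc transporter.

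For Rag1 the most alike were Tvp23a (0.95), Riox1 (0.93), Isg20 (0.92), an exonuclease, Fignl1 (0.92), a homologous recombination factor, and 4930520O04Rik (0.92), and the most opposite Ctxn1 (-0.95), Dclre1a (-0.94), a crosslink repair nuclease, and Zfp821 (-0.94). For Rag2 the most alike were Mtmr12 (0.95), Ing1 (0.94), Il18bp (0.93), the decoy receptor of interleukin-18, Tm6sf1 (0.93) and Klf6 (0.93), and the most opposite Maged1 (-0.92), Mdfi (-0.91) and Mmp14 (-0.91), a membrane metalloproteinase. Within the Cd2-low arrays r for the 5 most alike genes lay between 0.92 and 0.97 for Rag1 and between 0.85 and 0.93 for Rag2. The 3 sets of 5 most alike genes had no gene in common. With only 5 of 12670 tested genes taken for each member, this says little about how alike the members are.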

How the data were processed

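Total RNA of 10 primary lymphomas was measured on 10 arrays. Per the submitters' processing notes, the authors summarised the arrays with RMA, and the deposited unit is an intensity per probe set. The software version and annotation they used are not stated there. RMA corrects background, normalizes quantiles over arrays and summarises probes, so array-wide shifts can no longer be read. The intensities ran from 3.309 to 15587.9, a linear scale, and log2 of each was taken. Groups came from the sample titles, which call the replicates biological. Of 34760 probe sets, 21640 had 1 gene symbol in the platform annotation, 1321 several and 11799 none. Gene IDs of 21553 matched RefSeq and 0 symbols changed.

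Probe sets with a mean under the 40th percentile (log2 6.35) were left out, and the one of highest mean stood for each gene. Genotypes were compared over 12670 genes with limma 3.58.1 (lmFit, eBayes, no covariate) in R 4.3.3, p-values adjusted by Benjamini-Hochberg at a threshold of 0.05, and single values with exact two-sided permutation tests, which cannot give a p below 0.007937. The fit was also run on simulated data, drawn independently for each gene and array. The simulation held no Cd2 sets, sex or closely alike arrays, so it checks the code and not the effect of these features. Plots were made in Python 3.11.15 (matplotlib 3.10.9). The members and gene lists were chosen with earlier results of these data known. Named genes were the 3 members, Was, Cd2, Xist, Kdm5d, all measured genes of the recombination list, up to 5 genes of each other list by difference between Cd2 sets and 3 by genotype p, and the 5 most alike and 3 most opposite genes of each member. Iftap, Traf6, Cd3d, Cd3e, Cd247, Cd5, Cd6, Thy1, Blnk, Cd79b, Krt5, Ccl25, Psmb11, Foxn1, Tcf3, Tcf4, Tcf12, Pax5, Vpreb1, Vpreb3 and Igll1 were named after their values were seen.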

Additional observations from a re-analysis of the deposited data

Results flagged for a closer look

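In 32 groups of 5 arrays over the 16 recombination genes, 2 held an array far from the other 4 by Dixon's ratio with a critical value of 0.71, where chance flags about 1 in 20 groups. Poll was at 6.72 on WASP-/- array 1, the Cd2-high array of that genotype, against 6.17 to 6.31 on the other 4 WASP-/- arrays. Hmgb2 was at 12.16 on WT array 5, against 11.91 to 11.96 on the other 4 WT arrays. No array of Rag1, Rag2 or Dntt was far from the others in this sense.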

How the results depend on the processing

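The genotype differences of Rag1 and Dntt kept their sign and stayed short of the threshold under all 22 alternatives, at -0.34 to -0.08 and -0.47 to -0.17 (adjusted p of 0.759 to 1.0 and 0.659 to 1.0). That of Rag2 reversed with array weights (-0.19) and within the Cd2-low arrays (-0.42), and leaving out 1 array at a time gave 0.05 to 1.01. The lowest of these was without WT array 4 and the highest without WT array 1. With WT arrays 1 and 2 averaged, a choice made after seeing the data, it was 0.99. Because each member had 1 probe set, averaging probe sets changed none of them. The Cd2-high minus Cd2-low differences kept their sign under 14 alternatives, at -0.22 to -0.05 for Rag1, -2.50 to -1.42 for Rag2 and 0.41 to 0.56 for Dntt. The count of genes that passed by genotype was 2 with Welch's unequal variances and 2 within the Cd2-low arrays. It was 0 with the Xist covariate (187 with an unadjusted p under 0.05) and 0 with the replicate block (248). The gene lost in both was Was, at -1.06 with the covariate (adjusted p = 0.376) and -1.14 with the block (adjusted p = 0.136), against -1.14 as reported. Leaving out 1 array gave 1 to 4, with 2 without WASP-/- array 1 and 4 without WT array 3. WT array 3 was the only WT array with the Xist and Kdm5d levels of the WASP-/- arrays. Without it sex by these genes and genotype coincide, so the count of 4 cannot be read as genotype alone. The sample titles state no pairing of same-numbered arrays, and their deviations from the group means correlated at -0.71 to 0.37. The correlations were 0.37 and 0.29 for numbers 2 and 3, where both arrays were Cd2-low. They were negative for numbers 1, 4 and 5, where the arrays differed in Cd2 set, so they cannot decide on a pairing. With the replicate block Rag1 was at -0.18, Rag2 at 0.56 and Dntt at -0.37, none passing. Low Rag2 levels near the filter limit its folds.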
